A study of Mus musculus with 10 samples.

Results

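The 2 microRNA (miRNA) microarrays of this study measured the mature miRNAs of one RNA preparation a first and a second time. They were chosen by their labels, microarray RNA1 and microarray RNA2, and are 2 of the 10 samples of the series. The other samples are quantitative PCR cards of the same RNA and are not described here. The cells were C2C12, a mouse myoblast line derived from skeletal muscle, kept proliferating in growth medium without any treatment and before fusion into myotubes. Nothing differed between the groups by design: each array received a separate 8 μg aliquot of the same total RNA, so a difference between them is a difference between assays and not between cells. RNA below a size limit was recovered, tailed with poly(A), tagged, hybridized overnight to a microfluidic chip and stained for reading in 1 colour. Here array 1 is the one labelled RNA1 and array 2 the one labelled RNA2.

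A miRNA is a short RNA that is cut from a hairpin in a longer transcript and loaded into an Argonaute protein. It then represses messenger RNAs that pair with its seed, the stretch near its 5′ end, so that miRNAs with the same seed are grouped as a family. In skeletal muscle, miR-1, miR-133 and miR-206 are the best known, because they rise when myoblasts leave the cell cycle and differentiate. Families that differ by a single base outside the seed are hard to tell apart by hybridization, and a probe's brightness also depends on how tightly it binds, so signals were compared for one probe between the arrays and not between probes as amounts of RNA.

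Each chip held 617 probes for mouse miRNAs, each spotted 5 times, and 48 control probes. The deposited signals are background-subtracted spot intensities. Sequences below are those the chip was designed against, written 5′ to 3′, with the seed (bases 2 to 8) in capitals. Of the 617 target sequences, 492 matched a mature miRNA of RefSeq exactly, and positions are given on the mouse build GRCm38.p6. The first set is the let-7 family, whose 9 probes share the seed and supplied 6 of the 15 brightest probes of the chips.

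let-7a: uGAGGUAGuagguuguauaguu
let-7b: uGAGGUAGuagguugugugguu
let-7c: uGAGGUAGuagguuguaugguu
let-7d: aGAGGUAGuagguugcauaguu
let-7e: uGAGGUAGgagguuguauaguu
let-7f: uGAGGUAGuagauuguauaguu
let-7g: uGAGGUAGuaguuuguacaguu
let-7i: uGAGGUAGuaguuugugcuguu
miR-98: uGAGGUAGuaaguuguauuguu

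Counted from the 5′ end, let-7c differs from let-7a by A19G, let-7e by U9G and let-7f by G12A, each a single base. The genes of let-7a, let-7f and let-7d lie together on chromosome 13, with the mature let-7a at chr13:48538239-48538260 on the minus strand, and let-7f also has a copy on chromosome X within the span of Huwe1, beside miR-98. A second set holds miRNAs with no shared seed that were among the brightest or the most different between the arrays. It was chosen because the comparison of the arrays turned on them.

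miR-206: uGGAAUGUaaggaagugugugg
miR-21: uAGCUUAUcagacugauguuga
miR-24: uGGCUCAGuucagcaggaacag
miR-196a: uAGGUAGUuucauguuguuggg
miR-374: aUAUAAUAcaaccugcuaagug
miR-690: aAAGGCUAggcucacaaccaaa
miR-709: gGAGGCAGaggcaggagga

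The mature miR-206 lies at chr1:20679055-20679076 within the span of the long noncoding RNA Lincmd1, and miR-21 at chr11:86584120-86584141 within Vmp1. miR-690 lies at chr16:28599940-28599961 within Fgf12, and the gene of miR-709 within Rfx1 on chromosome 8. The last set is shown for a run of alternating C and A, here with each CACAC in capitals in place of the seed, since 4 of the 8 largest differences between the arrays fell in such sequences.

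miR-329: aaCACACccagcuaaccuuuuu
miR-466f-3p: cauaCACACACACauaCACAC
miR-467f: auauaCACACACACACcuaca
miR-466i: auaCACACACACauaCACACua
miR-466g: auacagacacaugCACACACa
miR-574-3p: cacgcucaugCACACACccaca

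A miRNA was taken as detectable where the mean of its 5 spots was 32 or more. The paper's listed criteria were stricter on the spots and were not applied here. They asked for a signal above 3 SDs of the background, a spot SD below 0.5 of the signal, and enough repeats above background. By the mean alone 149 miRNAs were detectable on array 1 and 162 on array 2. On both it was 22.2% of the 617, while the other 480 were below the limit on at least 1 array. Of these, 12 passed on array 1 only and 25 on array 2 only. The 5 probes just inside the limit, set by their lower array, were miR-667, miR-374, miR-19b, miR-1905 and miR-1894-5p. The 5 just outside it were miR-181b (31.9 on array 1 and 40.3 on array 2), miR-324-5p, miR-28*, miR-483* and miR-188-5p, so membership near the limit turned on differences of a few units. A probe below the limit was below the detection of this chip, which does not show that its miRNA was absent.

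The signal was concentrated in few probes. The 5 brightest on each array held 48.3% of the summed signal on array 1 and 51.4% on array 2, and the 8 let-7 probes held 35.3% and 40.5%. The same 14 probes were among the 15 brightest of both arrays, with miR-26a the other member on array 1 and miR-206 on array 2. By the mean of the arrays, the brightest were miR-709, let-7c, let-7b, let-7a, miR-21, let-7d, let-7f, miR-23a, miR-23b, miR-214, miR-125b-5p, miR-24, let-7e, miR-125a-5p and miR-206. miR-21, a miRNA of proliferating and mesenchymal cells, had a mean of 21049 ± 1385 (SD of the 5 spots, as in the values that follow) on array 1 and 20479.6 ± 1046 on array 2. miR-214, transcribed from the opposite strand of a Dnm3 intron in the Dnm3os RNA, had 8337 ± 361 and 7792 ± 455. For both, the spots of the arrays overlapped.

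Across the miRNAs detectable on both arrays, all but 480 of the 617, the log2 signals had a Pearson correlation of 0.970 and a Spearman correlation of 0.928. These are descriptions over probes that share a chip, an RNA and a hybridization. The median log2 difference, array 2 minus array 1, was -0.003, so neither array was brighter overall among detectable probes, while the median size of the difference was 0.35. The difference was within 0.5 for 94 of them (68.6%) and over 1 for 13. The high correlation therefore stood beside differences of more than a doubling for some probes. Within narrower ranges of signal it was lower, at 0.374 for the 51 probes with a mean of 32 to 100, 0.587 for the 41 from 100 to 500, 0.388 for the 22 from 500 to 2000 and 0.937 for the 23 above that. The ranges were cut on the mean of the same signals, and a narrow range lowers a correlation by itself. These values therefore do not rank the agreement of the ranges. The median size of the log2 ratio was 0.25, 0.48, 0.37 and 0.29 in the same order.

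**Figure D1:**
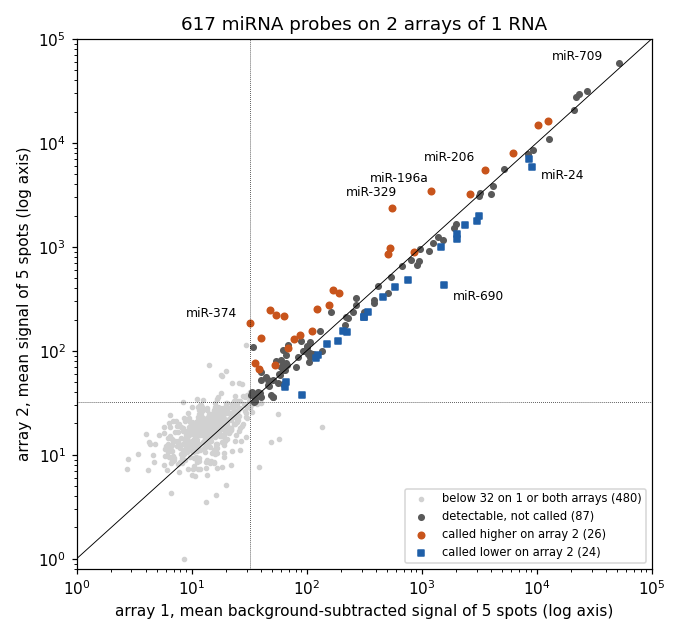
Mean background-subtracted signal of each of the 617 probes on array 1 (horizontal, log axis) and array 2 (vertical, log axis). Each point is a probe, dotted lines mark the detection limit of 32 and the diagonal marks equal signals. Most detectable probes lie near the diagonal, while miR-329, miR-196a and miR-374 lie above it and miR-690 below it.

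Spots of one probe on one array differed less as the signal grew. The median coefficient of variation (CV, the SD of the 5 spots over their mean) was 15.5% on array 1 and 13.9% on array 2. It was 24.2% and 23.7% for probes from 32 to 100, 16.3% and 14.5% from 100 to 500, 8.35% and 6.61% from 500 to 2000, and 8.54% and 6.09% above 2000. The smallest CVs belonged to miR-24, miR-151-5p, miR-31, miR-92b and miR-93. The largest among detectable probes belonged to miR-133a, miR-7a, miR-540-5p, miR-685 and miR-1907. A probe whose spots repeat closely can still differ between chips, and miR-24 was such a case: its CV was 2.68% on array 1 and 2.14% on array 2, yet its signal was 1.54-fold lower on array 2.

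**Figure D2:**
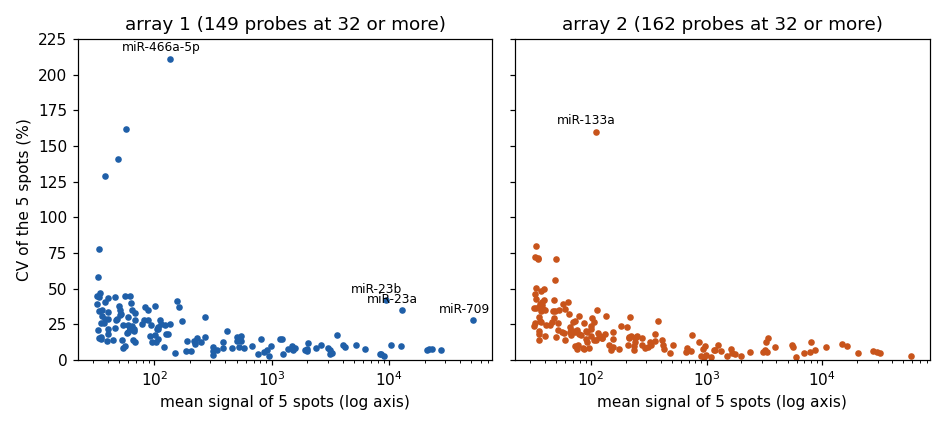
Coefficient of variation of the 5 spots (vertical, %) against their mean signal (horizontal, log axis) for the probes at 32 or more on array 1 (left) and array 2 (right), 1 point per probe. The CV falls with the signal. miR-709, miR-23a and miR-23b on array 1 stand above the other bright probes, and miR-133a stands apart on array 2 at 159.9%.

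To ask which miRNAs differed between the arrays beyond the spread of their spots, log2(signal + 32) values of the 5 spots were compared with limma after a loess curve was removed, with p-values adjusted over all miRNAs detectable on both arrays. These p-values set the difference against spot spread within 2 chips. They do not measure the spread between chips, RNA preparations or cultures, of which there is no replicate. At an adjusted p below 0.05, 50 of these miRNAs differed (36.5%) and 87 did not pass. Of the 50, 26 were higher on array 2 (19%) and 24 lower (17.5%). At an unadjusted p below 0.05, 67 differed. Before normalization, the spots of the arrays did not overlap for 49 (35.8%), with array 2 above for 21 (15.3%) and array 1 above for 28 (20.4%). The median size of the 50 differences was 0.45 on the log2 scale, and 10 exceeded 1, 9 of them higher on array 2. Centring each array on its median over the miRNAs detectable on both arrays gave 18 higher and 64 lower. Quantile normalization gave 21 and 37, and scaling to the 5S ribosomal RNA probes gave 132 and 1. Of the 24 lower calls, 22 had a difference above 0 after scaling to 5S, miR-699 lost its call and miR-690 kept it, so each direction below is relative to the bulk of the miRNAs and not to 5S.

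The let-7 miRNAs, which repress Ras, Hmga2 and cell-cycle genes and are abundant in differentiated tissue, were all detectable. Of the 9, 4 were higher on array 2 (44.4%) and none was lower. Over all detectable miRNAs 19% were called higher and 36.5% in either direction. The count for let-7 was 7 higher and 1 lower without normalization, 2 and 2 after median centring and 3 and 1 after quantile normalization. With scaling to 5S all 9 were higher, as were 132 of all detectable miRNAs. The median log2 difference of the let-7 family was 0.18, beside 0.01 for all detectable miRNAs. let-7f had spots of 10466, 9179, 9326, 10659 and 11843 on array 1 and of 16304, 14924, 12546, 14158 and 16762 on array 2. Every spot of array 2 was above every spot of array 1, and the normalized log2 difference was 0.47 ± 0.10 (SE, adjusted p = 0.00319). let-7d, which differs from let-7a by U1A and U16C, had means of 12501 ± 1238 and 16205 ± 1546 (log2 difference 0.29 ± 0.09, adjusted p = 0.0269). let-7e had 6195 ± 475 and 7924 ± 1012 and its spots overlapped (0.37 ± 0.10, adjusted p = 0.0125).

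The dimmest member, miR-98, had spots of 36.2, 17.9, 39.8, 47.7 and 35.8 on array 1 and of 95.7, 52.5, 68.9, 80.7 and 80.4 on array 2. Its arrays did not overlap, although it was near the detection limit (0.61 ± 0.14, adjusted p = 0.00422). The other members did not pass the test. let-7a (21849.6 ± 1640.2 and 27663 ± 1685) and let-7b (23339 ± 1849 and 29434 ± 1560.3) were brighter on array 2 in every spot before normalization, with adjusted p of 0.0851 and 0.106 after it. With the position of the spot as a block, both passed (adjusted p = 0.0335 and 0.0338) and let-7i passed as lower (adjusted p = 0.0182). let-7i, which differs from let-7a by 4 bases, had 4032 ± 411 and 3257 ± 408, and let-7g had 805 ± 118 and 749.7 ± 132. Before normalization both were dimmer on array 2, and after it only let-7i was below 0 among the 9. Differences between members were not tested.

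Of the 8 muscle miRNAs on the chip, 4 were detectable on both arrays. miR-206 was the brightest of them, with spots of 3392, 3041, 3073, 3787 and 4555 on array 1 and of 5305, 5211, 4924, 5635 and 6419 on array 2. The arrays did not overlap, and its normalized log2 difference was 0.70 ± 0.12 (adjusted p = 0.000681). miR-486, which lies within Ank1 in mammals, had 163 ± 61 and 236 ± 16.8 with no overlap of the spots. It was just short of a call (0.60 ± 0.22, adjusted p = 0.0502). miR-486 passed as higher with the scanner's spot densities, with robust regression of the spots and with scaling to 5S. miR-133b, encoded beside miR-206, had 39.3 and 39.3. The detectability of miR-133a on array 2 came from 1 spot: its spots were 422, 17.3, 47.3, 27.7 and 33.1, and the mean of the other 4 was 31.4, below the limit. Without that spot repeat, miR-133a would not count as detectable on both arrays.

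miR-1 and the myosin-encoded miR-208a, miR-208b and miR-499, which belong to cardiac and differentiated muscle, had means below 32 on both arrays. The muscle list was thus represented by a bright miR-206 in these proliferating myoblasts, with miR-1 below detection. Markers of other tissues were mostly below the limit as well. None of the 7 epithelial, 3 liver, 2 endothelial and 4 pancreatic miRNAs was detectable on either array, and of the 16 embryonic stem cell miRNAs only miR-290-5p passed on 1 array, at 37.6. Of 9 neuronal miRNAs, miR-128 was detectable (65.7 ± 9.26 and 76.7 ± 7.82), and of 7 blood cell miRNAs, miR-155. miR-155 is induced in activated lymphocytes and macrophages and is not restricted to them.

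**Figure D3:**
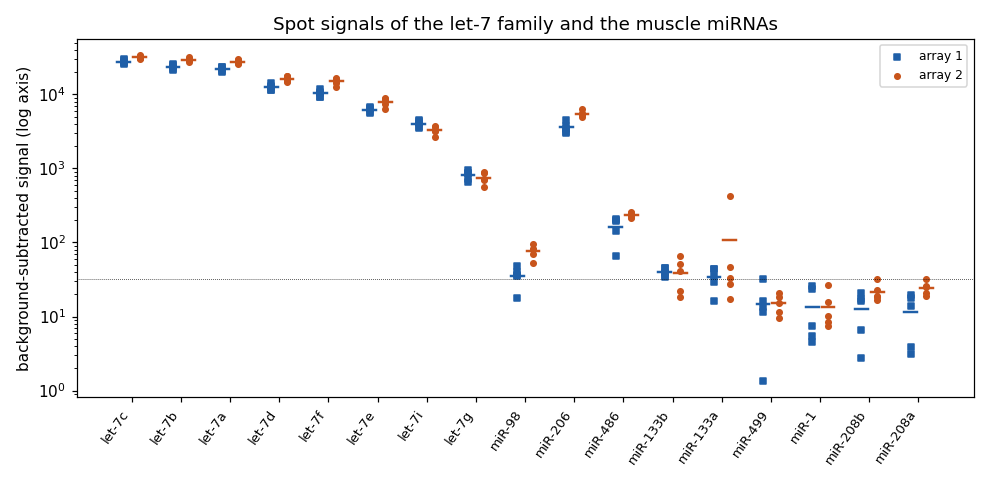
Background-subtracted signal (log axis) of each of the 5 spots for the let-7 family (left) and the muscle miRNAs (right), with array 1 as squares, array 2 as circles and bars at the means. The dotted line is the detection limit of 32. miR-206 lies between 3041 and 6419, miR-1, miR-208a, miR-208b and miR-499 lie mostly below the line, and 1 spot of miR-133a stands at 422.

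Members of the miR-17-92 cluster, which drive proliferation, and of its related clusters were detectable for 10 of 13 probes. Of these 3 were lower on array 2 (miR-17, miR-18a and miR-93), beside 17.5% of all detectable miRNAs, and none was higher. The count depended on the scaling: 8 were lower after median centring, which moved the median of all detectable miRNAs to -0.23, and all 10 were higher with scaling to 5S. With the position of the spot as a block, miR-20a (adjusted p = 0.0435) and miR-106a (adjusted p = 0.0153) were lower as well, 5 in all. miR-17 had 1480.5 ± 147 and 987 ± 34.5 (log2 difference -0.34 ± 0.08, adjusted p = 0.0042), and miR-93, in the Mcm7 gene, 765 ± 30 and 479 ± 21.6 (-0.43 ± 0.06, adjusted p = 0.0002). The nearest neighbour of miR-17 in sequence, miR-106a, is 1 base different and had a similar log2 difference of -0.35. miR-20a and miR-20b, 2 bases different from miR-17, had -0.15 and 0.06. Without the block none of these neighbours passed. The family median was -0.15.

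The miR-23/27/24 clusters, 1 copy on chromosome 8 and 1 within Aopep on chromosome 13, were detectable with all 5 probes. miR-24 had spots of 8839.9, 8919, 9109, 9470.2 and 9097 on array 1 and of 5793, 5876, 5977, 6067 and 5765 on array 2, the tightest set of the bright probes. It was lower by -0.61 ± 0.06 (adjusted p = 5.55e-06). miR-27a had 2047 ± 235 and 1182 ± 79.3 (-0.56 ± 0.09, adjusted p = 0.000525), while miR-27b, which is 1 base different, had 1163 ± 172 and 921 ± 73.2 and did not pass (-0.09). With scaling to 5S, miR-24 was higher instead and miR-27a was not called. miR-23a and miR-23b did not pass, with log2 differences of -0.19 and 0.06, and each held 1 low spot on array 1. miR-23a had a spot of 4962 where the other 4 lay between 14068 and 15927, and miR-23b a spot of 2527 where the others lay between 10133 and 12084. With the spot repeat in question left out, miR-23a was at -0.52 and miR-23b at -0.37, both past the threshold.

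In the miR-15/16 family, which restrains cyclins and Bcl2, miR-15b was higher on array 2 (2635 ± 269 and 3218 ± 228, log2 difference 0.41, adjusted p = 0.00306) and miR-16 lower (2369.8 ± 202 and 1622 ± 128.3, -0.36, adjusted p = 0.0042). miR-15b and a copy of miR-16 are encoded in one cluster, and the pair was not called in opposite directions under every scaling: miR-15b lost its call after median centring and miR-16 turned to higher with scaling to 5S. In the miR-26 family, miR-26a had 4165 ± 362 and 3863 ± 341, while miR-26b was higher on array 2 with 170.4 ± 46 and 381 ± 103 (1.13 ± 0.20, adjusted p = 0.000771). miR-182 and miR-183, encoded in one cluster on chromosome 6, went opposite ways, with log2 differences of -0.28 and 0.94. The call of miR-182 was close to the threshold (adjusted p = 0.0438). It was lost with a plain t-test at the paper's threshold and when the scanner's spot densities were used, and miR-182 turned to higher with scaling to 5S. miR-29a, a repressor of collagen genes, was lower on array 2 (3019 ± 258 and 1772 ± 77.7, -0.60 ± 0.07, adjusted p = 5.52e-05), and miR-29c, which is 1 base different, was below the limit on both arrays.

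Of the 7 detectable miRNAs in the list with miR-21, miR-31 (3155 ± 124.3 and 1984 ± 60.2, -0.52, adjusted p = 3.49e-05) and miR-34a, a p53 target, were lower on array 2. Of the miR-99/100 and miR-125 group, 4 of 5 were detectable and miR-125b-5p and miR-99b were lower, and with the block on spot position miR-125a-5p was higher (adjusted p = 0.0321). Of the pair of miR-143 and miR-145, markers of smooth muscle, miR-143 was lower, with 316 and 212. The shares called in these 3 lists, 28.6%, 50% and 50%, stood beside 36.5% of all detectable miRNAs and rest on few probes. Neither miR-221 nor miR-222, which repress the cell-cycle inhibitor p27, passed, nor did any of the 3 detectable probes of the cluster of miR-199 and miR-214 or the 2 of the miR-181 family. miR-221 passed as lower with the block on spot position (adjusted p = 0.00798), and both miR-221 and miR-222 passed as lower without normalization and after median centring. miR-322, miR-503 and their neighbours on chromosome X, which promote cell-cycle exit in myoblasts, had 1 of 9 probes detectable, that of miR-351. The list held no star strands. Outside it, miR-322*, the other strand of the miR-322 hairpin, was detectable (83.7 ± 31.2 and 87.2 ± 6.48) and did not pass (adjusted p = 0.847). miR-351 had 916 and 672 with no overlap of the spots, and was just short of a call (adjusted p = 0.0511). miR-351 passed as lower without normalization, after median centring and after quantile normalization, and as higher with scaling to 5S.

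The 15 largest differences were led by sequences outside these families. miR-329, from the imprinted miRNA cluster on chromosome 12 (chr12:109713541-109713562), had spots of 539.8, 469.6, 544, 485.7 and 699.5 on array 1 and of 2529.5, 2223, 2249, 2315 and 2467 on array 2. The signals differed 4.30-fold with no overlap, and the normalized log2 difference was 2.28 ± 0.10 (adjusted p = 1.44e-08). miR-196a, which lies in the Hox clusters and represses Hoxb8, had 1214 ± 175 and 3417 ± 514 (1.64 ± 0.12, adjusted p = 9.89e-07), while miR-196b, which is 1 base different, was below the limit on both arrays (23.2 and 30.1). miR-374, in the Ftx gene beside Xist, had 32.4 ± 12.7 and 183 ± 43.2, and was detectable on array 1 by a margin of less than 1 unit (1.71 ± 0.16, adjusted p = 5.55e-06).

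The largest difference in the other direction was that of miR-690, a small RNA first found by cloning. Its spots were 1424, 1451, 1611, 1585 and 1738 on array 1 and 398, 433, 453, 393 and 466.9 on array 2. The signal was 3.64-fold lower on array 2, and the log2 difference after the loess curve was removed was -1.57 ± 0.08 (adjusted p = 2.94e-08). miR-690 was also the 1 miRNA called lower after scaling to 5S. miR-699 was lower as well, with 90.9 ± 15 and 37.4 ± 15.2 (-0.90). The rest of the 15 were higher on array 2: let-7d* (1.38), miR-26b (1.13), miR-805 (1.05), miR-183 (0.94), miR-155 (0.93) and miR-1195 (0.85), and the probes with CACAC or its complement described next. let-7d*, the opposite strand of the let-7d hairpin, was 3.41-fold brighter on array 2 before normalization, with no overlap of the spots.

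**Figure D4:**
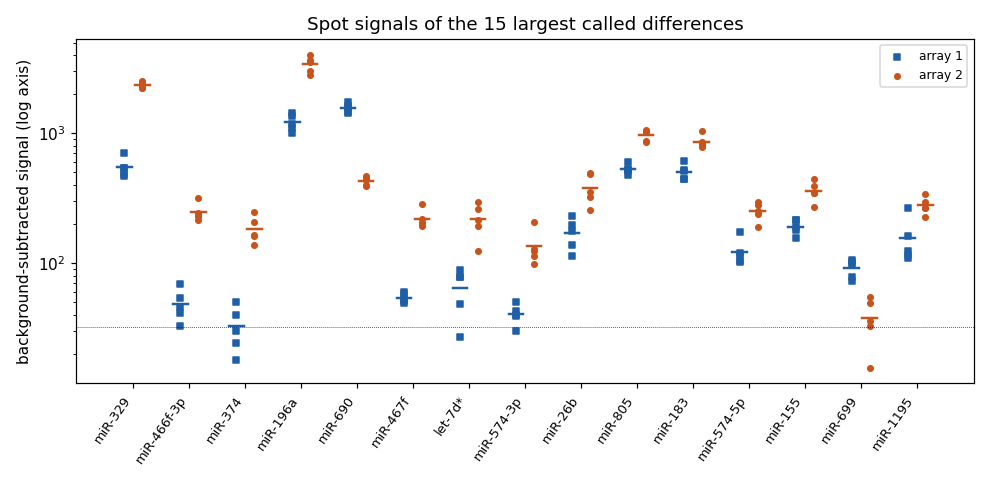
Background-subtracted signal (log axis) of each of the 5 spots for the 15 largest called differences, from left to right by their size, with array 1 as squares, array 2 as circles and bars at the means. The dotted line is the detection limit of 32. The arrays do not overlap for the first 14; miR-690 and miR-699 are lower on array 2 and the others higher.

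The motif CACAC was searched in the 617 target sequences on the written strand, overlaps allowed, and occurred in 31 of them (5.02%). Its complement read on the other strand, GUGUG, occurred in 38 (6.16%). Both were picked after the values had been seen, so no test was made. Among the 31 probes with CACAC, 6 had a log2 ratio of signal + 32 above 1 before normalization (19.4%), against none of the 38 with GUGUG and 5 of the 548 with neither (0.912%). Every spot of array 2 was above every spot of array 1 for 8 of the 31 (25.8%), against 3 of the 38 (7.89%) and 4.86% of all 617. Every spot of array 1 was above for 4.54% of the 617, among them miR-182 of the 31.

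The probes in question were miR-329, miR-466f-3p, miR-467f, miR-574-3p, miR-466i and miR-466g. miR-466f-3p had spots of 41.0, 45.4, 32.8, 69.1 and 53.6 on array 1 and of 316, 213.6, 231, 242 and 232 on array 2 (log2 difference 1.80 ± 0.13, adjusted p = 6.43e-07). miR-467f, within the span of Fxr2 on chromosome 11, had 54.0 ± 4.56 and 219.9 ± 37.5 (1.54 ± 0.10, adjusted p = 2.13e-07). miR-574-3p, within Fam114a1, had 40.2 ± 7.41 and 134 ± 41.5. On array 1 these 3 probes were near the detection limit, and on array 2 clearly above it. Of the 5 brightest miRNAs that were detectable on 1 array only, 3 held the motif and were detectable on array 2. miR-466i had 29.6 ± 5.75 and 114 ± 21.4, miR-466g 14.3 ± 6.36 and 72.9 ± 19.9, and miR-467b* 18.1 ± 11.3 and 59.1 ± 21.01. The other two were miR-434-3p, with 19.9 on array 1 and 64.3 on array 2, and miR-466a-5p, which passed on array 1 through 1 spot of 647.

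The pattern had exceptions. miR-182, with CACAC near its 3′ end, was lower on array 2, and miR-34c*, miR-297a*, miR-342-3p and miR-532-3p held the motif with log2 ratios before normalization of 0.13, 0.05, -0.00 and 0.04. Of the 44 probes for the miR-297, miR-466, miR-467 and miR-669 repeats, most of which lie in an intron of Sfmbt2 on chromosome 2, 4 were above 32 on array 1 and 8 on array 2. Of the 3 above it on both, miR-466f-3p and miR-467f were higher on array 2 and miR-669c, with GUGUG, was not called. The opposite strand of the miR-574 hairpin, miR-574-5p, holds a run of GUGUG and was also higher on array 2, with 122.5 ± 29.6 and 250.4 ± 41.1 (0.93 ± 0.14, adjusted p = 0.000249).

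The calls were also counted by base composition, to be read beside the 19% called higher and 17.5% called lower over all detectable miRNAs. Among detectable miRNAs of at most 35% G and C, 6 of 7 were called higher on array 2 and none lower, and above 35% and up to 45% 11 of 31 were called higher and 3 lower. From 45% to 55%, 3 of 60 were higher and 15 lower, and above 55% 6 of 39 were higher and 6 lower (15.4% each). The classes up to 45% thus held more higher calls than the whole and the class from 45% to 55% fewer, while the class above 55% was near it. Over all detectable miRNAs the correlation of GC content with the log2 difference was -0.24, a weak relation over probes that share the chips. The median difference of the miRNAs at 45% or less was 0.28, beside 0.01 for all. It was 0.090 after median centring, beside -0.23 for all, and 0.085 after quantile normalization, beside -0.06. By length, the medians were 0.04 for at most 21 bases, 0.02 for 22 and -0.12 for more.

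Small RNAs named in the range miR-676 to miR-721, many found by cloning and some since assigned to other RNA classes, had 10 of 49 probes detectable. Of these miR-689 was higher on array 2, and miR-690, miR-699 and miR-720 were lower, of which miR-720 lost its call with the block on spot position (adjusted p = 0.0594). miR-709 was the brightest probe of both chips, and its spots were 26285, 59301, 56542, 58887 and 59542 on array 1 and 59464, 58889, 55973, 59062 and 56798 on array 2. Apart from the first spot of array 1 the arrays overlapped, and the log2 difference of -0.06 did not pass. Without spot repeat 1 it was -0.24 and passed, although the remaining spots of the arrays overlapped before normalization. The loess curve lowered the difference of this probe, from 0.22 to -0.06 with all its spots. Star strands, the less used strands of hairpins, had 10 of 115 probes detectable, with let-7d* and miR-382* higher on array 2 and miR-140* lower. The shares called, 40% of the detectable cloned small RNAs and 30% of the star strands, lay near the 36.5% of all detectable miRNAs.

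The control probes set limits to these comparisons. All 5 probes for 5S ribosomal RNA, which is present in the sample, were dimmer on array 2, with log2 ratios from -1.19 to -0.48 and a median of -0.70. The calibration probes that match their spiked target were brighter on array 2 for 13 of 16, with a median log2 ratio of 0.19, although only 9 of the 16 were at 32 or more on both arrays. They were not uniform: the bright Ctr07-3P and Ctr09-3P were dimmer on array 2, with log2 ratios of -0.11 and -0.46. Of 27 calibration probes with a mismatch, 19 were brighter on array 2, but only 2 were at 32 or more on both arrays. Both of these were brighter on array 2. PUC2MM had 6941 and 9656 (log2 ratio 0.48), and a-PUC2MM2d had 45.4 and 376.4 (3.05). The perfect-match probes PUC2PM and a-PUC2PM had log2 ratios of 0.12 and 0.08. The 5S probes and most calibration probes therefore moved in opposite directions between the chips, whereas the median of detectable miRNAs was at -0.003. How much of any difference goes with any of these classes was not tested.

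Position on the chip also moved with the signal. Each probe's 5 spots lay in 5 bands of rows, and a spot's deviation from its probe's mean followed the row. On array 1 the median deviation was 0.04 in the first 16 rows, -0.08 in rows 49 to 64 and 0.20 in the last 16. On array 2 it was 0.12, -0.07 and 0.06 in the same rows. The spot in the last band was the brightest of its 5 for 81 detectable miRNAs on array 1, and the spot in the first band for 61 on array 2. The part of position in single differences was not tested beyond the block on spot position, under which 67 miRNAs were called in place of 50, 36 of them higher and 31 lower.

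**Figure D5:**
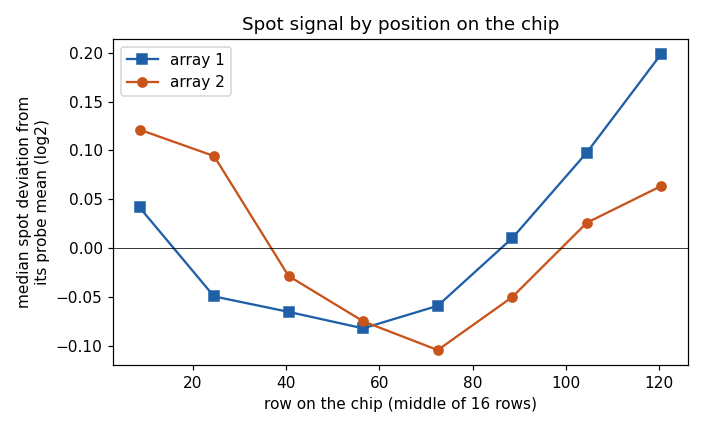
Median deviation of a spot from the log2 mean of its probe on the same array (vertical) by row of the chip in steps of 16 rows (horizontal), for the spots of the detectable miRNAs on array 1 (squares) and array 2 (circles). Array 1 rises to 0.20 in the last rows and array 2 is highest, at 0.12, in the first.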

How the data were processed

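The authors' service provider scanned the chips and subtracted background; the deposited values are spot intensities after that step, floored at 1, with the scanner's spot densities beside them. The methods name a locally weighted regression by 5S rRNA. The deposited values were taken as background-subtracted and not normalized by 5S, since they equal the scanner density less a background and the 5S probes still differ between the arrays; whether any such step is in them is not stated. Spots were joined to probe names by spot index. Probe signals are the mean of 5 spots. The number of arrays, 1 per aliquot, limits the precision. Log2(signal + 32) was taken per spot for miRNAs at 32 or more on both arrays, a loess curve (span 0.7) of the probe differences was removed, and limma 3.58.1 in R 4.3.3 compared array 2 with array 1, with Benjamini-Hochberg adjustment over all of them. Summaries used pandas 2.3.3 and numpy 2.4.6. The test recovered most set changes of 1 log2 unit in simulated data. Those spots were drawn independently, with no effect of position and no outlying spots, so that check does not cover these features of the chips. Same-position spots of the arrays deviated together (correlations 0.131 to 0.504 over the 5 repeats), so a fit with spot position as a paired block was also run; it called 67. Named miRNAs are the 15 brightest, the 15 largest called differences, the 5 with the smallest and largest spot CV, the 5 on each side of the limit, the 5 brightest on 1 array only, and examples from the lists. Members and lists were chosen with earlier results of these data known. The quantitative PCR files were not used here.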

Additional observations from a re-analysis of the deposited data

Results flagged for a closer look

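Among the 15 brightest miRNAs, the 15 largest differences and the 5 brightest on 1 array only, 65 sets of 5 spots were examined and 9 held a spot set apart by Dixon's criterion, which chance meets in about 1 of 20 sets. On array 1, low spots were 4962 for miR-23a, 2527 for miR-23b and 26285 for miR-709, with the others of each at no less than 14068, 10133 and 56542. On the same array, high spots were 647 for miR-466a-5p, whose other spots were at 12.5 or less, and 174 for miR-574-5p (others up to 119). miR-466a-5p was detectable on array 1 through that spot alone. On array 2 the spots set apart were high: 1048 for miR-183 (others up to 857), 316 for miR-466f-3p (up to 242), 285 for miR-467f (up to 216.2) and 205.5 for miR-574-3p (up to 129.1). Over all probes at 32 or more, 15 of 149 sets held such a spot on array 1 and 10 of 162 on array 2, and in 4 and 2 of them the mean of the probe fell below 32 without the spot.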

How the results depend on the processing

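Detectable miRNAs numbered 75 at a limit of 100 and 43 at 500; one array alone gave 149 to 162. The correlation was 0.979 on scanner densities, before background subtraction, and 0.955 over all 617 probes, and the offset on densities was 0.30. The share of tested miRNAs called (36.5%) was 59.9% after median centring, with 64 calls lower, and 58.1% at the limit of 500, with 13 higher and 12 lower of 43; quantile normalization gave 37 lower, and no filter called 5.67% of all 617, with 13 lower. Scaling to 5S, an alternative chosen after seeing the data, called 97.1%, 132 higher and 1 lower, moved the median of all tested from 0.01 to 0.80, and turned miR-125b-5p (0.50), miR-21 (0.75), miR-214 (0.69), miR-23a (0.65), miR-24 (0.17) and miR-709 (1.00) to higher. miR-23b turned to -0.37 without spot repeat 4 and to -0.31 with robust regression of the spots, also chosen after seeing the data. The median difference at 45% GC or less was 0.090, 0.085 and 1.11 after median centring, quantile normalization and 5S scaling, which put the median of all tested at -0.23, -0.06 and 0.80. The paired fit with the spot position block called 67 (48.9%). Leaving out each spot repeat in turn called 30.7% to 37.2%. A plain t-test of the same loess-normalized spots called 42 at the paper's threshold (p below 0.01) and 52 after Benjamini-Hochberg adjustment. The provider's normalization by 5S and its detection criteria were not applied there. Of the 50 calls, 37 were kept, in the same direction, under no normalization, median centring, quantile normalization and the scanner densities alike. Precision at low signal is limited by the background, which was subtracted at about 227 units on array 1 and 303 on array 2.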
